A study of Gallus gallus with 6 samples.

Results

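LIN28A, LIN28B and TRIM71 (entries LN28A_CHICK, LN28B_CHICK and LIN41_CHICK) are 3 of the 17781 gene entries in a count table made from chick embryo mesenchyme. They were chosen by name, with earlier results of these data known. LIN28A and LIN28B are a pair of paralogous RNA-binding proteins, and TRIM71, also called LIN41, is an RNA-binding protein with a RING-type ubiquitin ligase domain and NHL repeats. The study is titled as a work on turning non-limb fibroblasts into cells with properties of limb progenitors, and the table compares polyadenylated RNA from mesenchyme of limb-forming and other regions. There are 6 libraries, 1 for each source: presumptive forelimb at Hamburger-Hamilton stage HH15, forelimb at HH19, hindlimb at HH18, neck at HH19, flank at HH19, and flank and neck together at HH19. The tissue came straight from chick embryos with no treatment, and the labels give neither the strain, the sex nor the number of embryos behind a library. The title of the flank sample carries the number 9, while its source field gives HH19, which is used here. The table places LIN28A on chromosome 23, LIN28B on chromosome 3 and TRIM71 on chromosome 2, all on the minus strand, and positions are not given because the build behind its coordinates could not be settled.

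LIN28 proteins bind the precursors of let-7 microRNAs through a cold shock domain and zinc knuckles and block their maturation. Mature let-7 in turn represses the LIN28A, LIN28B and TRIM71 messages in animals in which this has been studied. The genes take their names from lin-28 and lin-41 of the worm Caenorhabditis elegans, heterochronic genes that set the timing of larval cell fates, and in vertebrates they are known for high expression in early embryonic and stem cells that falls as development proceeds. Lin41 expression in the early limb bud of chick and mouse is also known.

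Each library held between 7130877 and 9623046 reads assigned to genes, so that 3 reads corresponded to between 0.312 and 0.421 reads per 1000000 assigned reads (CPM), and between 11039 and 11623 genes reached 1 CPM. With 1 library per source there was no replicate error, so intervals on single levels cover counting error only, and a test over sources measures the spread between tissues and stages of a class. PRRX1, a mesenchyme transcription factor, was detected in all 6 libraries at 117 to 491 CPM. The library labelled flank and neck went against its label. HOXD12, a 5′ HoxD gene of the distal limb bud, stood at 237 CPM in it, against 0.369 in neck and 0.483 in flank, while forelimb HH19 had 55.7 and hindlimb 159. HOXA11, another limb bud Hox gene, had 81.3 CPM in it, against 0.369 in neck and 1.09 in flank. Forelimb HH19 had 25.5 CPM of HOXA11 and hindlimb 121. Forelimb HH15 was low in both, like neck and flank, with 0.561 CPM of HOXD12 and 0.561 of HOXA11. Across 8989 genes with a mean above 5 CPM its Spearman correlation was 0.901 with forelimb HH19, 0.897 with hindlimb, 0.861 with neck and 0.851 with flank, a description across genes, which are not independent replicates. The library labelled flank and neck had 189 CPM of TBX5 and 0.112 of PITX1. Forelimb HH19 had 182 and 0.377 of these genes, and hindlimb 0.520 and 196. The library labelled flank and neck was kept out of the tests and its values are given separately. Neck and flank were used as labelled, although some listed limb mesenchyme genes were not low in neck, in flank or in both. TBX5 had 165 CPM in neck and 102 in flank, against 182 in forelimb HH19. PITX1 had 46.8 CPM in flank, against 196 in hindlimb. LHX2 had 28.5 CPM in neck and 1.69 in flank, against 25.9 in forelimb HH15, 92.9 in forelimb HH19 and 81.8 in hindlimb. Of 15 limb mesenchyme genes tested, 12 had a log2 fold change above 0 in limb against neck and flank, with a median of 1.51. The median over all genes was -0.02, and the share of all genes above 0 was not computed. TWIST2 (-1.81), MSX2 (-1.15) and PRRX2 (-0.94) were below 0. Of the 15, TWIST2 alone passed, with an edgeR adjusted p of 0.0409. Whether neck and flank held limb cells was not tested.

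LIN28A varied most between the sources. It had 336 CPM in forelimb HH15 (2396 reads, 95% exact Poisson interval 323 to 350), 35.8 in forelimb HH19 (285 reads, 31.8 to 40.2), 85.2 in hindlimb HH18 (820 reads, 79.5 to 91.2), 45.0 in neck (366 reads, 40.5 to 49.8) and 46.9 in flank (388 reads, 42.3 to 51.8). The library labelled flank and neck gave 10 reads of it, 1.12 CPM (0.537 to 2.06). The HH15 library was the highest and hindlimb came next, neck and flank had overlapping intervals, and forelimb HH19 was the lowest of the 5 libraries of single tissues. The highest of those 5 was 9.38 times the lowest, and over all 6 libraries the ratio was 299.9. Neck stood above forelimb HH19 by 0.32 on the log2(CPM + 1) scale, and by 0.09 with TMM-scaled library sizes, so the order of these neighbours was not secure.

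LIN28B was more even. It had 246 CPM in forelimb HH15 (1757 reads, 235 to 258), 161.6 in forelimb HH19 (1286 reads, 153 to 171), 162.1 in hindlimb (1560 reads, 154 to 170.4), 109.6 in neck (892 reads, 102.5 to 117), and 141 in flank (1168 reads, 133 to 149.5). Its level in the remaining library, labelled flank and neck, was 76.9 CPM (686 reads, 71.2 to 82.8). The HH15 library was again the highest. Hindlimb and forelimb HH19 were the only neighbours in the order whose intervals overlapped, and the highest of the 5 single-tissue libraries was 2.25 times the lowest.

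TRIM71 had another order, with hindlimb first. It had 131 CPM in forelimb HH15 (933 reads, 123 to 139.5), 107 in forelimb HH19 (852 reads, 99.99 to 114.5), 159.9 in hindlimb (1539 reads, 152 to 168), 81.1 in neck (660 reads, 75.0 to 87.5), and 78.1 in flank (646 reads, 72.2 to 84.3). Its level in the remaining library, labelled flank and neck, was 30.0 CPM (268 reads, 26.5 to 33.8). All 3 limb libraries lay above neck and flank. Only neck and flank had overlapping intervals, and their order turned with TMM-scaled library sizes and without the globin reads and the top gene. The highest of the 5 single-tissue libraries was 2.05 times the lowest. In these bulk samples fewer cells expressing a gene and less of its RNA per cell cannot be told apart, here and for every level that follows.

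**Figure D1:**
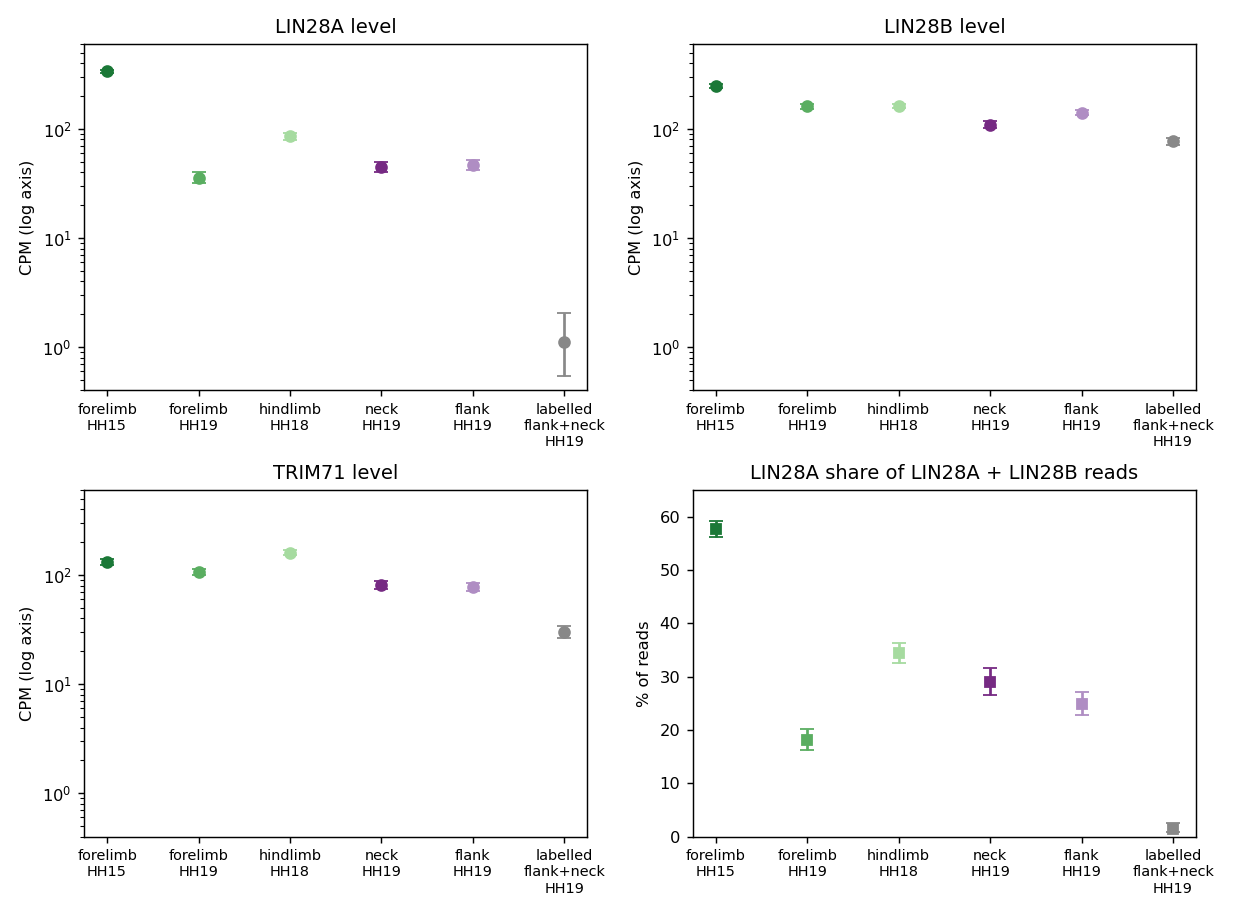
Level of LIN28A, LIN28B and TRIM71 (CPM, log axis) in each of the 6 libraries; points are single libraries and bars are 95% exact Poisson intervals, which cover counting error only. LIN28A was at 336 CPM in forelimb HH15, 35.8 in forelimb HH19 and 1.12 in the grey library, labelled flank and neck, while LIN28B stayed between 76.9 and 246 and TRIM71 between 30.0 and 159.9. The last panel shows the share of LIN28A in the reads of LIN28A and LIN28B (%, bars are 95% Wilson intervals), from 57.7% in forelimb HH15 to 1.44%.

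The difference between the forelimb libraries was large for LIN28A and small for LIN28B and TRIM71. LIN28A in forelimb HH15 was 9.38-fold of forelimb HH19 (95% exact counting interval of the ratio 8.29 to 10.6). Of 11807 genes at 1 CPM or more in either library, 9.60% differed by at least 2-fold, and 25 genes, 0.212%, differed as far as LIN28A or farther in the same direction. LIN28B was 1.52-fold higher (1.42 to 1.64) and TRIM71 1.22-fold higher (1.11 to 1.34) in forelimb HH15, so 1 of the 3 genes passed 2-fold. The authors' deposited table lists the same fold for LIN28A, 9.38, with a p of 0. All of these are differences between single libraries, with no replicate check. Forelimb HH15 was presumptive forelimb, so stage and tissue make-up cannot be told apart in this pair.

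Hindlimb HH18 lay clearly between the forelimb stages for LIN28A, was level with forelimb HH19 for LIN28B and stood above both forelimb stages for TRIM71. LIN28A in forelimb HH15 was 3.94-fold of hindlimb (3.64 to 4.27), a pair in which 9.78% of genes differed by at least 2-fold, and hindlimb was 2.38-fold of forelimb HH19 (2.08 to 2.73), a pair in which 4.02% did. LIN28B hardly separated the later limb buds, with a hindlimb to forelimb HH19 ratio of 1.003 (0.931 to 1.08), and the authors' deposited table gives a p of 0.935 for that pair. TRIM71 was 1.49-fold higher in hindlimb than in forelimb HH19 (1.37 to 1.63) and 1.22-fold higher than in forelimb HH15 (1.13 to 1.33). Stage and limb type differ together in each pair, so their parts cannot be told apart.

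Among the non-limb sources, neck and flank were close. The neck to flank ratio was 0.959 for LIN28A (0.829 to 1.11), 0.776 for LIN28B (0.711 to 0.848) and 1.04 for TRIM71 (0.930 to 1.16). None of the 3 reached 2-fold, against 7.39% of all genes. The authors' deposited table gives p of 0.565 for LIN28A and 0.494 for TRIM71 in this pair. Only LIN28B differed beyond counting error, with more in flank.

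Limb to non-limb ratios depended on the limb library. Forelimb HH19 had less LIN28A than neck (ratio 0.796) and flank (0.764), while it had more LIN28B (1.47 and 1.14) and more TRIM71 (1.32 and 1.37); none passed 2-fold, against 16.9% and 13.9% of all genes. Hindlimb was above neck and flank for all 3 genes, by 1.90-fold and 1.82-fold for LIN28A, 1.48-fold and 1.15-fold for LIN28B, and 1.97-fold (1.80 to 2.16) and 2.05-fold (1.87 to 2.25) for TRIM71. TRIM71 against flank was the only one of these 6 past 2-fold, and the background was 15.1% against neck and 12.4% against flank. This depended on the totals. On the log2 scale TRIM71 in hindlimb against neck was 0.97, but 1.19 with TMM-scaled library sizes and 1.04 without the globin reads and the top gene. LIN28A in hindlimb against neck went from 0.91 to 1.13 with TMM-scaled library sizes, also past 2-fold. Forelimb HH15 had 7.47-fold of the LIN28A level of neck (6.69 to 8.36) and 7.16-fold of that of flank (6.43 to 7.997). In those pairs 12.0% and 8.43% of genes differed by at least 2-fold, and 18 and 8 genes differed as far as LIN28A in its direction. LIN28B was 2.25-fold (2.07 to 2.44) and 1.75-fold of neck and flank, and TRIM71 1.61-fold and 1.68-fold.

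**Figure D2:**
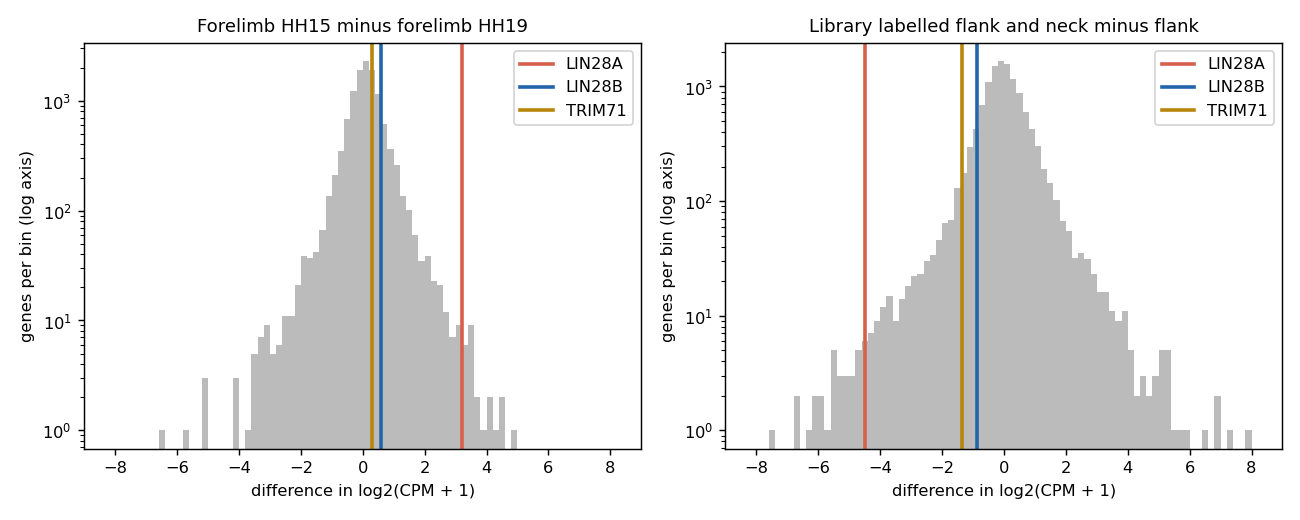
Grey histograms show the differences in log2(CPM + 1) of all genes at 1 CPM or more in either library (genes per bin, log axis), for forelimb HH15 minus forelimb HH19 (left) and the library labelled flank and neck minus flank (right), with coloured lines for LIN28A, LIN28B and TRIM71. The LIN28A line lies far out in the upper tail for the forelimb stages, at 3.19, and in the lower tail for the other pair, while LIN28B and TRIM71 lie nearer the bulk of genes. Over all 12 pairs compared, 11 of the 36 differences of these genes were at least 2-fold, most of them those of LIN28A. Of all genes, between 4.02% and 18.2% differed by at least 2-fold, depending on the pair. The pairs reuse the same 6 libraries, so these differences are not independent.

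Over the 3 limb libraries and the neck and flank libraries, the lowest limb library was above both non-limb libraries for LIN28B (161.6 against 141 CPM in flank) and for TRIM71 (107 against 81.1 CPM in neck), but not for LIN28A (35.8 against 46.9 CPM in flank). The same separation was seen in 16.1% of the 11507 genes tested. Neck and flank were both at HH19, while the limb libraries were at HH15, HH18 and HH19, so class and stage cannot be fully told apart. In edgeR's quasi-likelihood test of limb against neck and flank, the log2 fold change was 0.86 ± 0.18 (SE) for TRIM71, with an adjusted p of 0.0725. It was 0.71 ± 0.23 for LIN28B, with an adjusted p of 0.141, and 1.82 ± 0.88 for LIN28A, with an adjusted p of 0.255. None of the 3 genes passed 0.05, where 0.148% of all genes did (17 genes, 7 higher and 10 lower in limb). Unadjusted p-values of the same edgeR test were 0.00309 for TRIM71, 0.0226 for LIN28B and 0.0827 for LIN28A. At an unadjusted threshold of 0.05, 13.7% of all genes were higher and 11.3% lower in limb, and the median log2 fold change over all genes was -0.02. DESeq2 on the same counts called TRIM71 (0.87 ± 0.22, adjusted p of 0.00177) and neither LIN28 gene, with adjusted p of 0.0566 for LIN28B and 0.295 for LIN28A. Without forelimb HH15 the LIN28A value dropped to 0.53 ± 0.39, with an edgeR adjusted p of 0.409.

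The contrast of HH15 with the later libraries set 1 library against 4, so its errors and p-values come wholly from the spread among 4 different sources and say nothing of how HH15 samples vary. The HH15 library is also the only presumptive forelimb, so stage and tissue cannot be told apart. LIN28A was 2.64 ± 0.44 higher on the log2 scale in edgeR's test, with an unadjusted p of 0.000997 and an adjusted p of 0.998. LIN28B was 0.75 ± 0.33 higher (unadjusted p of 0.0615) and TRIM71 0.27 ± 0.48 higher (unadjusted p of 0.596), both at an edgeR adjusted p of 0.998. Of 12203 genes, 1 passed 0.05, which is 0.00819%. It was SCARB1, a lipoprotein receptor, named here after its values were seen. At an unadjusted threshold of 0.05, 1.32% of genes were higher and 1.52% lower in HH15, and LIN28A was among the former. DESeq2 gave LIN28A an adjusted p of 0.00148, with a log2 fold change of 2.63 ± 0.53 and called 15 genes, with the same limit of 1 library in the HH15 arm. LIN28A and LIN28B were highest in HH15, as were 16.5% of 12737 genes, and TRIM71 was highest in hindlimb, as were 7.84%.

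**Figure D3:**
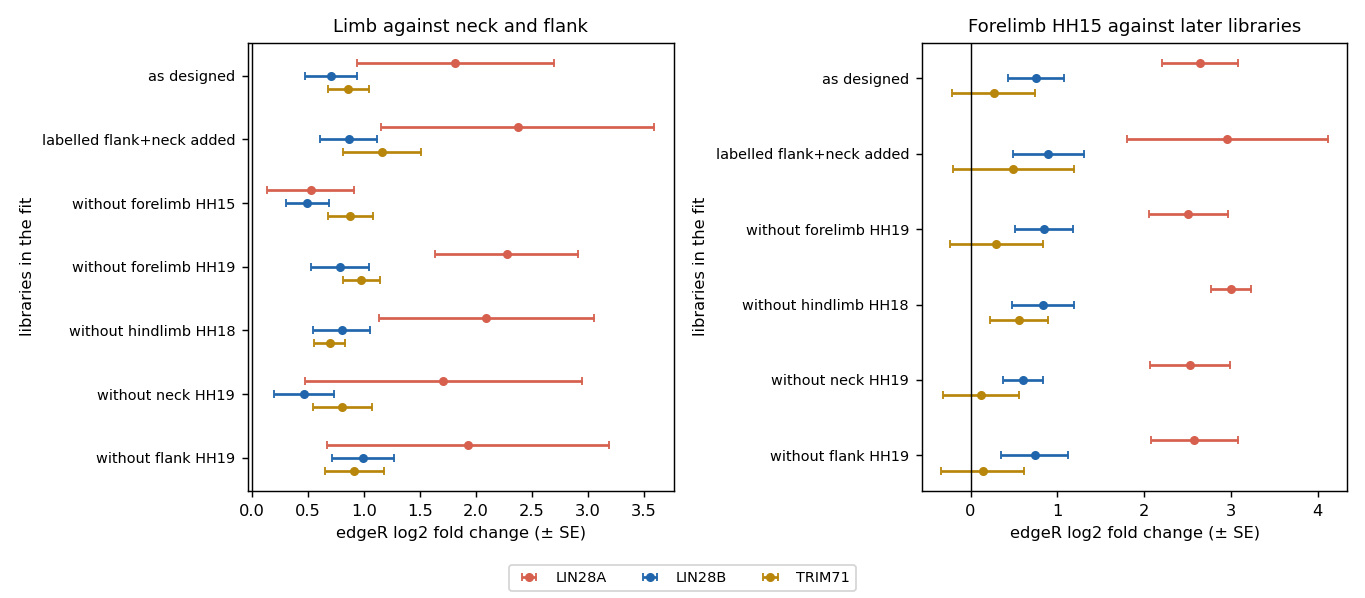
edgeR log2 fold changes (points, with SE bars) of LIN28A, LIN28B and TRIM71 for limb against neck and flank (left) and forelimb HH15 against later libraries (right), with the libraries as designed, with the library labelled flank and neck added, and without each library in turn. All 3 genes are above 0 in every row, LIN28A on the left drops from 1.82 to 0.53 without forelimb HH15, and LIN28A on the right stays above LIN28B and TRIM71, at 2.64 as designed.

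The balance between the LIN28 paralogs shifted with the source. LIN28A took 57.7% of the reads of the pair in forelimb HH15 (95% Wilson interval 56.2 to 59.2), 34.5% in hindlimb (32.6 to 36.4), 29.1% in neck (26.7 to 31.7), 24.9% in flank (22.8 to 27.1) and 18.1% in forelimb HH19 (16.3 to 20.1). Where the label reads flank and neck it took 1.44% (0.782 to 2.62). The share was highest in HH15 and lowest, among single tissues, in forelimb HH19. The share does not depend on library size, but gene lengths were not used, so it is a share of reads and not of molecules.

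All 3 genes had their lowest level where the label reads flank and neck, as did 26.3% of all genes. LIN28A was 40.1-fold lower than in neck (21.6 to 84.4) and 41.9-fold lower than in flank (22.5 to 87.98). These are pairs in which 18.2% and 17.3% of genes differed by at least 2-fold, and 28 and 37 genes differed as far as LIN28A in its direction. TRIM71 was 2.70-fold lower than in neck (2.34 to 3.12) and 2.60-fold lower than in flank (2.25 to 3.01). LIN28B was 1.43-fold lower than in neck (1.29 to 1.58) and 1.84-fold lower than in flank (1.67 to 2.02). LIN28A and TRIM71 were thus more than 2-fold outside the range of neck and flank, as were 10.8% of genes, and LIN28B was not. All 3 genes were also lower than in forelimb HH19 and hindlimb, the libraries with which this library correlated most. The authors' deposited ratios to forelimb HH19 were 0.0313 for LIN28A, 0.476 for LIN28B and 0.280 for TRIM71. Those to hindlimb were 0.0131, 0.474 and 0.188. No share over all genes was computed for these pairs.

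Across the 6 libraries the log2(CPM + 1) levels of LIN28A and LIN28B had a Pearson r of 0.923, those of LIN28A and TRIM71 0.903, and those of LIN28B and TRIM71 0.863. Over the 5 libraries without the one labelled flank and neck the same values were 0.839, 0.575 and 0.654. These are descriptions over few libraries that the genes share, and the pairings with TRIM71 rested in part on that 1 library. The 5 genes most like LIN28A over 6 libraries, of 6276 considered, were TFDP1 (r 0.996), a dimerization partner of E2F factors, MCAT (0.995), SF4 (0.990), C2orf47 (0.989) and C2orf60 (0.984), and the most opposite was LDLRAD4 (-0.996). TFDP1 ranged only from 45.4 to 83.7 CPM, so the likeness is in order and spacing and not in size. The 5 most like LIN28B were CBS (0.995), which makes cystathionine from homocysteine, EI24 (0.991), GNL2 (0.989), YEATS2 (0.987) and NOM1 (0.983), and the most opposite was GTF2A1L (-0.996). The 5 most like TRIM71 were NUP50 (0.994), a nuclear pore protein, TXLNG (0.993), NARG1 (0.988), RCC1L (0.986) and NCOA4 (0.986), and the most opposite was MXD4 (-0.993), a MAX partner. An r of 0.9 or more was reached by 3.60% of genes for LIN28A, 2.09% for LIN28B and 3.65% for TRIM71. With the library labelled flank and neck left out, 1 of the 5 remained among the 5 most like for LIN28A, 2 for LIN28B and 0 for TRIM71.

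Genes of let-7 maturation and decay had log2 fold changes of both signs in limb against neck and flank. Of 15 tested besides the LIN28 genes, none passed the edgeR test there, against 0.148% of all genes. At an unadjusted p below 0.05, 2 were higher, against 13.7% of all genes, and 4 lower, against 11.3%, and the median log2 fold change was 0.05, beside -0.02 over all genes. XPO5, which exports microRNA precursors from the nucleus, ranged from 324 to 371 CPM in the limb sources, with 371 in forelimb HH15, and was at 245 in neck and 221 in flank (log2 fold change 0.70 ± 0.10, edgeR adjusted p of 0.0525). All limb levels were higher than both non-limb levels, yet the value did not pass. TUT7, a terminal uridylyltransferase that tails LIN28A-bound let-7 precursors, ranged from 23.1 to 28.9 CPM over the limb sources and had 49.1 in neck and 37.2 in flank (-0.62 ± 0.16, edgeR adjusted p of 0.0920). TNRC6B and TNRC6C, silencing partners of Argonaute proteins, had log2 fold changes of -0.39 and -0.35, which did not pass either. In HH15 against later libraries none of the 15 passed the edgeR test, with 0 at an unadjusted p below 0.05, against 1.32% of all genes higher and 1.52% lower, and a median of -0.09. The values farthest from 0 were 0.36 for XPO5, 0.32 for AGO4, an Argonaute, -0.30 for TUT4, the partner of TUT7, and -0.27 for DICER1, which cuts the precursor.

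Besides LIN28A, LIN28B and TRIM71, 23 listed let-7 target genes were tested, DICER1 of the maturation list among them. MYCN passed higher and COL1A2 lower in limb, against 0.148% of all genes in either direction. At an unadjusted p below 0.05, 4 were higher, against 13.7% of all genes, and 2 lower, against 11.3%, and the median was 0.23. MYCN, a growth-promoting transcription factor, had 156 CPM in forelimb HH15, 139.7 in forelimb HH19 and 142 in hindlimb, while neck had 29.6 and flank 31.7. Its log2 fold change was 2.37 ± 0.13, with an edgeR adjusted p of 0.0181, and the limb and non-limb libraries were far apart. COL1A2, a chain of type I collagen, had between 326 and 417 CPM over the limb sources, while neck had 1278 and flank 932 (-1.48 ± 0.14, edgeR adjusted p of 0.0464), and as a second entry overlaps its locus, its value is uncertain. MYCN and COL1A2 moved in opposite directions, and without forelimb HH19, hindlimb, neck or flank edgeR called neither, as 0 listed genes passed. NR6A1, an orphan nuclear receptor known as GCNF, had 41.1 CPM in forelimb HH15, 24.8 in forelimb HH19, 17.8 in hindlimb, 11.7 in neck and 14.6 in flank. It did not pass in limb against neck and flank (1.19 ± 0.37, edgeR adjusted p of 0.128), and the MYC value there was 0.57. In HH15 against later libraries none of the 23 passed the edgeR test, and NR6A1 was the 1 gene with an unadjusted p below 0.05 (1.22 ± 0.45, p of 0.0362), against 1.32% of all genes higher. The median over the list was 0.08, beside -0.04 over all genes. HMGA2, a chromatin protein and textbook let-7 target, had 26.2 CPM in forelimb HH15 and 38.1 in forelimb HH19, the reverse of the order of LIN28A. Its log2 fold change in HH15 against later libraries was small, -0.21. IGF2BP1, another listed target, was higher in forelimb HH15 than in forelimb HH19, as LIN28A was, with 304 and 200 CPM. Its order otherwise differed from that of LIN28A, with 284 CPM in neck and 218 in hindlimb. The log2 fold change of IGF2BP1 in HH15 against later libraries was 0.45. Of the 23 targets, 13 had a value above 0 in HH15 against later libraries, and the share above 0 over all genes was not computed.

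Of 8 listed TRIM71 messenger targets and partners tested, none passed the edgeR test in either comparison. In limb against neck and flank 0.148% of all genes passed, so none of so few genes passing says little. There 0 of the 8 had an unadjusted p below 0.05 in the edgeR test, against 13.7% of all genes higher and 11.3% lower. Their median in limb against neck and flank was 0.12. The values farthest from 0 there were 1.07 for EGR1, an immediate early transcription factor, -0.31 for MBNL1, a splicing factor, and 0.22 each for AGO2 and NF2. In HH15 against later libraries EGR1 alone of the 8 had an unadjusted p below 0.05 (-3.49 ± 1.26, p of 0.0331), against 1.52% of all genes lower. EGR1 had 0.701 CPM in forelimb HH15, 10.3 in forelimb HH19, 12.5 in hindlimb, 2.33 in neck and 5.80 in flank, and its highest level, 25.7, was that of the library labelled flank and neck. CDKN1A, a cell cycle inhibitor whose message is repressed by TRIM71 in mouse, was at or under 0.140 CPM in all 6 libraries and was not tested.

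Of 7 genes of axial and developmental timing tested, none passed the edgeR test of limb against neck and flank. NR6A1, HMGA2 and IGF2BP1 among them are also in the let-7 target list above. AGO2 is likewise in the lists of let-7 maturation and of TRIM71 targets and partners. Counts of different lists are therefore not separate, and NR6A1 is counted in both of its lists. At an unadjusted p below 0.05, 2 were higher in limb against neck and flank, against 13.7% of all genes, and 2 in HH15 against later libraries, against 1.32%. Their medians were 0.54 in limb against neck and flank and 0.45 in HH15 against later libraries. PRTG, protogenin, a transmembrane protein of early axial tissue, is named as the largest HH15 difference with an unadjusted p below 0.05 in this list. It had 237 CPM in forelimb HH15, 49.5 in forelimb HH19, 37.8 in hindlimb, 106 in neck and 77.5 in flank, and the library labelled flank and neck had 9.97 (HH15 against later 1.84 ± 0.43, edgeR unadjusted p of 0.00525, adjusted p of 0.998). CDX2, a caudal homeobox gene of posterior tissue, had 12.3 CPM in forelimb HH15, 5.92 in flank and at most 1.04 in the others. T, the brachyury gene, ranged from 4.55 to 8.80 CPM, and CYP26A1, which degrades retinoic acid, from 0.112 to 13.9.

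**Figure D4:**
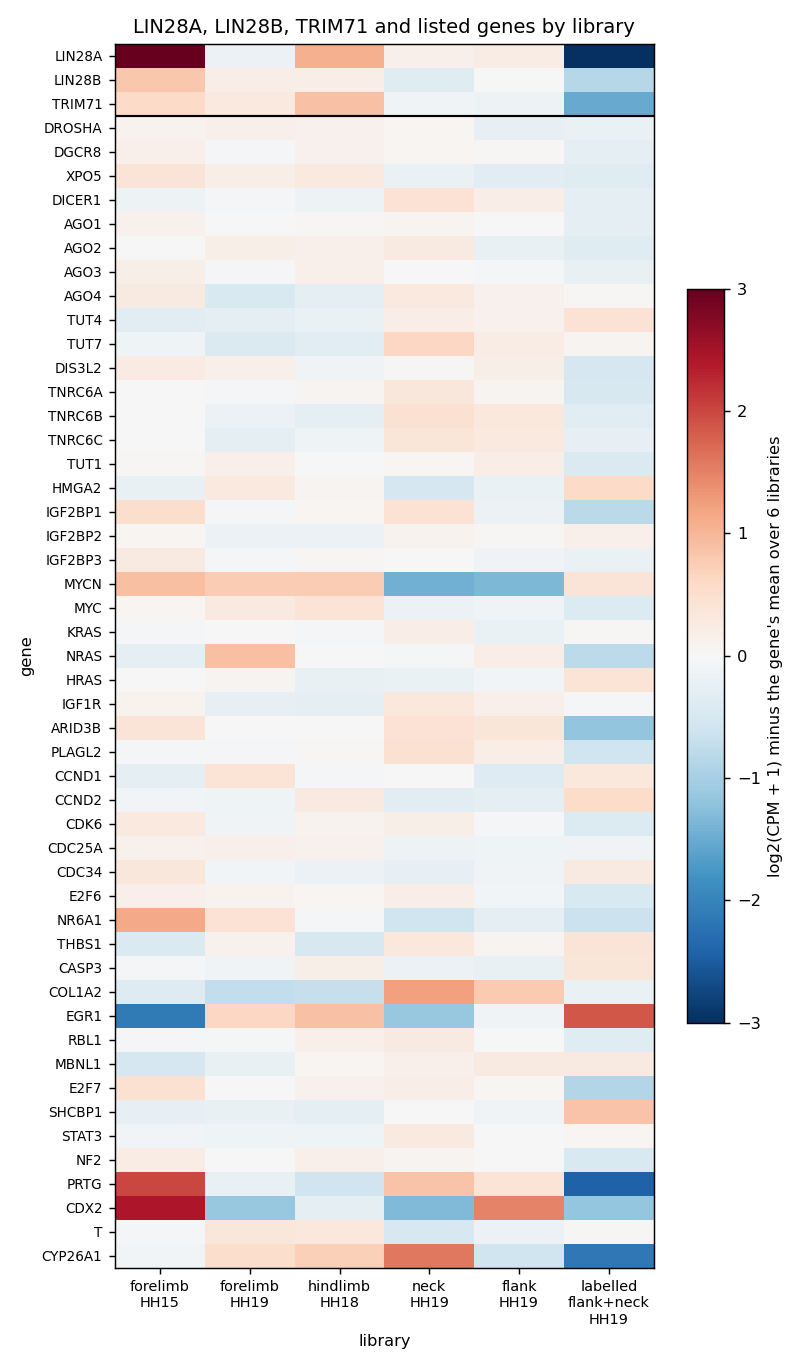
Colours show, by gene (rows) and library (columns), log2(CPM + 1) of each gene minus its mean over the 6 libraries, limited to 3 either way, for 51 genes in all, LIN28A, LIN28B and TRIM71 at the top, that had at least 5 CPM in a library. Red in HH15 and blue in the last column stand out for LIN28A and PRTG, MYCN is low in neck and flank, and the rows of the let-7 maturation genes are pale.

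Markers of other cell types had these values beside LIN28A, LIN28B and TRIM71. Germ cell genes DDX4 and DAZL were at or under 0.491 and 0.727 CPM, neural SOX2 and PAX6 at or under 0.280 and 0.140, and neural crest SOX10 at or under 0.421, so these defining markers were at or near 0 in every library. Other genes of the same lists were expressed. The 6 neural tube genes found summed to between 34.7 and 76.3 CPM, with ELAVL4, a neuronal RNA-binding protein, at 21.9 to 37.1 and DCX, a neuronal microtubule protein, at 3.74 to 53.2 and highest in flank. The 6 neural crest genes found summed to 44.6 CPM in forelimb HH15, 107 in forelimb HH19, 123 in hindlimb, 44.4 in neck and 48.3 in flank, and to 230.2 where the label reads flank and neck. Among them TFAP2A, a transcription factor also of ectoderm, reached 192 CPM and SNAI2, also of mesenchyme, lay between 22.1 and 47.4. The 9 myogenic and somite genes found summed to 4.91 CPM in forelimb HH15, where LIN28A was highest, 40.1 in forelimb HH19 and 37.1 where the label reads flank and neck, where LIN28A was lowest, and to between 8.34 and 17.2 elsewhere. PAX3, a muscle precursor factor among them, had 0.421 CPM in forelimb HH15 and 14.8 in forelimb HH19. The part of these lists in the LIN28A differences was not tested. The 8 listed pluripotency and germ cell genes found summed to between 40.6 and 53.0 CPM in the limb sources and to between 15.7 and 21.7 in the rest. PRDM1, a transcriptional repressor, had the highest level of the list in forelimb HH15, at 33.9 CPM, and TFAP2C in hindlimb, at 24.6 CPM, genes that other embryonic tissues also express. The 10 ectoderm genes found summed to 174 CPM in forelimb HH15, 124 in neck and 129 in flank, against 35.2 in each of the later limb libraries and 45.4 where the label reads flank and neck. EPCAM, a defining marker among them, had 8.55 CPM in HH15, 2.26 in forelimb HH19 and 1.35 in hindlimb, and CDH1 ranged from 16.2 to 31.7. The ectoderm sum was therefore high in forelimb HH15, where LIN28A was highest, and also in neck and flank. KRT19 made up the largest part of the HH15 sum, at 100.1 CPM. KRT5 and EPCAM, like KRT19, were higher in forelimb HH15, neck and flank than in the later limb libraries. CDH1 and GRHL3 did not follow the sum. CDH1 had 16.2 CPM in flank, below 16.9 in hindlimb, and its highest level, 31.7, was where the label reads flank and neck. GRHL3 was lowest in forelimb HH15, at 2.24 CPM, and highest where the label reads flank and neck, at 6.83. The part of ectoderm markers in the LIN28A difference was not tested. Blood genes summed to 40218 CPM in flank and to between 139 and 4471 elsewhere, and the 10 endothelial genes to 387 CPM in neck and to between 106 and 193 elsewhere. Leaving the globin reads out of the totals moved no difference of LIN28A, LIN28B or TRIM71 beyond its counting interval.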

How the data were processed

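The deposited table holds, for each of 17781 gene entries and 6 libraries, the authors' read counts, their CPM values (reads per 1000000 of each library's total), and their own pairwise fold ratios and p-values. Per the submitters' processing notes, TopHat 1.4.0 and the build galGal4 were used, with their roles not given, and the read counter, the annotation and the test behind the authors' p-values are not given in the sources used here. No strand information for counting is stated, so antisense reads cannot be told apart. LIN28A, LIN28B and TRIM71 are each 1 entry, named in UniProt form, and no other entry overlaps them.

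Levels were recomputed as CPM with 95% exact Poisson intervals. Pairs of libraries were compared on log2(CPM + 1) over genes at 1 CPM or more in either library, with a threshold of 2-fold. The limb libraries (3) were tested against neck and flank, and forelimb HH15 against 4 later libraries, with edgeR 4.0.16 (quasi-likelihood test, TMM, filterByExpr, two-sided, Benjamini-Hochberg adjustment over all genes tested) in R 4.3.3. In the second test the lone library is assumed to vary like the others. Alternatives were DESeq2 1.42.0, limma 3.58.1, no filter, no TMM, the library labelled flank and neck added, a limb class term, another pseudocount, other totals and leaving out each library. The edgeR fit was also run on simulated counts with other settings than these data, as a check of the code only. Genes and lists were chosen with earlier results of these data known. Named genes were LIN28A, LIN28B and TRIM71, and some listed genes that passed or had the 4 largest differences of their list in a comparison. Not all such listed genes are named. For each of the 3, the 5 likest genes (mean of at least 5 CPM) and the most opposite one were named. Other genes were named after their values were seen.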

Additional observations from a re-analysis of the deposited data

Results flagged for a closer look

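The count table also holds 11 entries for let-7 hairpins, which no comparison above used, and 3 of them had more than 3 reads in a library. The reads come from polyadenylated RNA over the hairpin loci, such as primary transcripts, and are not levels of mature let-7. Each of the 6 libraries stood above the level that 3 reads set for the let-7d entry, with 17 reads in forelimb HH15, 13 in forelimb HH19, 17 in hindlimb, 33 in neck and 28 in flank, while the library labelled flank and neck had 43. In CPM these were 2.38 (95% exact Poisson interval 1.39 to 3.82), 1.63 (0.870 to 2.79), 1.77 (1.03 to 2.83), 4.05 (2.79 to 5.69), 3.38 (2.25 to 4.89) and 4.82 (3.49 to 6.49). For let-7d the 3 limb libraries were lower than the other 3, of which the library labelled flank and neck went against its label. The intervals of all 3 limb libraries overlapped those of both neck and flank. That of forelimb HH15 also overlapped that of the library labelled flank and neck. The let-7f entry had 7 reads in forelimb HH15, 2 in forelimb HH19 and 6 in hindlimb. It had 0 in neck, 2 in flank and 0 where the label reads flank and neck. In the same order the let-7i entry had 7, 0, 5, 1, 8 and 1 reads. Neither of these entries was lower in all 3 limb libraries. In edgeR's test of limb against neck and flank the gga-let-7d entry had a log2 fold change of -0.82 ± 0.34, with an adjusted p of 0.203.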

How the results depend on the processing

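No paired analysis was possible because there is 1 library per source and the labels carry no replicate numbers. In limb against neck and flank LIN28A ranged from 0.53 to 2.37 over 10 alternatives (adjusted p 0.199 to 0.589), LIN28B from 0.47 to 0.99 (0.0566 to 0.513) and TRIM71 from 0.70 to 1.16 (0.00177 to 0.348). DESeq2 alone called one of them, TRIM71, at 0.87. The 17 genes called by edgeR (7 higher, 10 lower) became 1340 with DESeq2 (857 and 483), 259 with no filter (143 and 116), 43 with limma (15 and 28) and 33 with no TMM (9 and 24). No TMM moved the median of all genes from -0.02 to -0.15. With the library labelled flank and neck added edgeR called 0 genes, with 2098 at an unadjusted p below 0.05. Leaving out 1 library gave 0 to 680 calls: 680 without forelimb HH15, and 0 without forelimb HH19, hindlimb, neck or flank, where 1521 to 2318 genes had an unadjusted p below 0.05. Of listed genes 3 were called (MYCN, COL1A2 and TWIST2), against 18 with DESeq2, 6 with no filter, 0 with the library labelled flank and neck added, and 0 to 13 on leaving out 1 library. The 18 include TRIM71 itself, which is in the lists. Calls over all genes rose as well, from 17 to 1340 of 11507 genes tested with DESeq2. They were 259 of 16285 with no filter and 680 of 11315 without forelimb HH15. The causes were not tested.

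In forelimb HH15 against later libraries DESeq2 called LIN28A at 2.63. With limb class as a second term edgeR gave LIN28A 2.39 (adjusted p 0.175), and TRIM71 reversed to -0.12 (adjusted p 0.903). The 1 gene called became 15 with DESeq2, 6 with the class term, 0 with limma (328 at an unadjusted p below 0.05), 0 with the library labelled flank and neck added (318) and 0 on leaving out forelimb HH19, hindlimb, neck or flank (265 to 404). Listed genes called numbered 0 in the edgeR test, 1 with DESeq2 and 1 with the class term. The listed gene that DESeq2 called was LIN28A itself, which is in the lists. Leaving out the HH15 library itself gives no value. Of 108 recomputed pairwise differences 95 stayed within counting error, 13 moved more, and none of at least 2-fold reversed. In 3 values near 0 the sign changed: with TMM-scaled totals LIN28B in hindlimb against forelimb HH19 went to -0.01 and TRIM71 in neck against flank to -0.09, and the latter went to -0.03 without the globin reads and the top gene. The 11 differences of at least 2-fold became 13 with TMM-scaled totals and 12 without the globin reads and the top gene, where 5 globin entries were left out and 4 had been planned. Leaving the library labelled flank and neck out of the likeness was chosen after seeing the data. LIN28A there, at 10 reads, is the level that depth limits most.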

Other observations

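PRDM16 and ZBTB16, zinc finger transcription factors chosen for comparison because they bear on the same study question, were distributed otherwise than the LIN28 genes. PRDM16 had 13.6 CPM in forelimb HH15, 124 in forelimb HH19, 123 in hindlimb, 50.1 in neck and 3.51 in flank, and the library labelled flank and neck had 178. Its highest value was in the library where LIN28A was lowest. ZBTB16 had 25.2 CPM in forelimb HH15, 107 in forelimb HH19, 124 in hindlimb, 27.3 in neck and 7.49 in flank, and the library labelled flank and neck had 65.4. Both were low in forelimb HH15, where LIN28A and LIN28B were highest, and lowest in flank.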
